A study of Mus musculus with 13 samples.

Results

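The primed epiblast pluripotency genes are 10 mouse genes: Pou5f1, Sox2, Nanog, Pou3f1, Fgf5, Otx2, Zic2, Utf1, Lin28a and Sall4. They are taken by symbol, by a rule that uses no measured value but was written with earlier results of these data known, and all 10 were found among the 38377 gene identifiers of the count table. RNA was measured by bulk sequencing in 13 libraries of female mouse cell lines that form 6 groups. Epiblast stem cells (EpiSC), which stand for the epiblast after implantation, were grown on matrigel with FGF2 and Activin, and were either heterozygous for an Xist deletion (EpiSC dXist, 2 libraries) or wild type (EpiSC WT, 2 libraries). Extraembryonic endoderm stem cells (XEN), which stand for the yolk sac endoderm lineage, were grown in DMEM with FBS. The XEN groups were a paternal Xist deletion with 20 uM 5-aza-2'-deoxycytidine (XEN dXist Aza, 2 libraries), the same deletion untreated (XEN dXist, 3 libraries), wild type with the same dose (XEN WT Aza, 2 libraries) and untreated wild type (XEN WT, 2 libraries). Xist is the RNA that silences an X chromosome in female cells, and 5-aza-2'-deoxycytidine (Aza) is a cytidine analogue that blocks maintenance of DNA methylation. The labels do not say whether the libraries of a group came from separate clones or cultures, so a p-value reflects the spread among libraries, which may be technical.

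The epiblast gives rise to the embryo proper, and its pluripotency passes from a naive state before implantation to a primed state after it. The DNA-binding factors Pou5f1 (OCT4), Sox2 and Nanog form the core of the network in both states and bind one another's regulatory DNA. Pou3f1 (OCT6), Otx2, Zic2 and the secreted growth factor Fgf5 mark the passage to the primed state, and Utf1 is a chromatin-associated protein of undifferentiated cells. Lin28a and Sall4 are less restricted. The RNA-binding protein Lin28a blocks maturation of let-7 microRNAs in many early cells, and the zinc finger factor Sall4 is also known in mouse for its part in extraembryonic endoderm stem cells.

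The 10 genes lie on 8 chromosomes, none of them the X. In GENCODE vM21 on GRCm38, Pou5f1 is at chr17:35506018-35510772, Sox2 at chr3:34650405-34652461 and Nanog at chr6:122707489-122714633. Pou3f1 is at chr4:124656807-124660655, Fgf5 at chr5:98254184-98277030, Otx2 at chr14:48657677-48673819 and Zic2 at chr14:122475435-122479852. Utf1 is at chr7:139943789-139945112, Lin28a at chr4:134003330-134018841 and Sall4 at chr2:168748332-168767943. All are protein-coding. The annotation places another gene over Pou5f1 (Gm19553), Sox2 (Sox2ot), Pou3f1 (Gm2164), Otx2 (Otx2os1 and Gm49154), Lin28a (Gm13061) and Sall4 (Gm14261). The sources used here give no counting strand, so reads of these overlaps cannot be assigned, and Pou5f1 and Nanog also have pseudogenes that can share reads with them.

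Promoter sequence from RefSeq (GRCm38.p6) was at hand for 7 of the 10 genes, namely Pou5f1, Sox2, Nanog, Fgf5, Otx2, Utf1 and Lin28a. The sequences of 5 of these are shown as examples of the short motifs described next, in lower case, 5′ to 3′ on the gene's strand, with the matches in capitals. Each printed stretch stops at the annotated gene start at the latest, so that of Utf1 holds 3 of its 4 matches.
Pou5f1, chr17:35505782-35506017, plus strand: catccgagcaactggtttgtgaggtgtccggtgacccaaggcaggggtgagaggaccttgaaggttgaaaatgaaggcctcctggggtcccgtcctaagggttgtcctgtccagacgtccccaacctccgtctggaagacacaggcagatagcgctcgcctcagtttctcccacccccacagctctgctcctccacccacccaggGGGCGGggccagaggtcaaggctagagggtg
Sox2, chr3:34649745-34649994, plus strand: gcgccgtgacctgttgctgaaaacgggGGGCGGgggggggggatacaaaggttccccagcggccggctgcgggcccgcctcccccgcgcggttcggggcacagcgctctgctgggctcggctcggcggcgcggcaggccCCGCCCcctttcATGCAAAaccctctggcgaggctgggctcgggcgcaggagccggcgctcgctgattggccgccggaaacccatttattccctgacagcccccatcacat
Nanog, chr6:122707239-122707488, plus strand: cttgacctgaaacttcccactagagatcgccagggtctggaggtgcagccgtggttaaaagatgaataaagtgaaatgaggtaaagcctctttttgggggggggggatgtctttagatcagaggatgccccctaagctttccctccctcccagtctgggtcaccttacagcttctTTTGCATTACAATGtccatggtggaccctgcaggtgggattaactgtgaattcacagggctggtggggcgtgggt
Utf1, chr7:139943606-139943788, plus strand: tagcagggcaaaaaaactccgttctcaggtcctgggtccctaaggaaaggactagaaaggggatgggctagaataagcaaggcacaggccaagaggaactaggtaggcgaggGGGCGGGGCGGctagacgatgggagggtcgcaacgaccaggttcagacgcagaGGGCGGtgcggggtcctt
Lin28a, chr4:134018842-134019066, minus strand: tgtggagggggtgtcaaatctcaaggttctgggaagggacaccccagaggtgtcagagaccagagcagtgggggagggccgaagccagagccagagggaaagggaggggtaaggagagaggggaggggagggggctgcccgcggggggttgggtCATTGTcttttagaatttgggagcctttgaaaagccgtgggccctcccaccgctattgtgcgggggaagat
The 250 bases before each RefSeq start were searched on both strands for 5 motifs. The composite of an octamer-like and a SOX-like element, TTTGCATTACAATG, was found in 2 of 32851 windows (0.00609%), both of them windows of Nanog, where it begins 75 bases before the start. It was searched in exactly the letters it has in Nanog, with no position left variable. A fixed string of this length is rare in any windows, so this share is no measure of how particular such an element is to Nanog. The octamer-like part of the composite, written ATGCAAA, was in 4.12% of all windows and also in that of Sox2, 99 bases before the start. The SOX-like part ACAATG was in 10.7% of windows, Nanog and Lin28a among them. The full octamer ATGCAAAT was in 1.6% of windows and in none of the 7 genes. The GC box GGGCGG was in 32.7% of windows, in that of Pou5f1, Sox2 and Fgf5 and at 4 positions in that of Utf1, of which a pair overlap. A match describes the letters in this window and says nothing of binding. CpG dinucleotides, the target of the methylation that Aza blocks, numbered 27 in the window of Sox2, 24 in Fgf5, 14 in Utf1, 8 in Pou5f1, 7 in Lin28a, 6 in Otx2 and 3 in Nanog, against a median of 6 over all windows (quartiles 2 and 16).

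Libraries held 5848454 to 35247432 counts. Mitochondrial rRNA and Rn7sk, RNAs without long poly(A) tails, took 10.4% to 13.5% of counts in both XEN WT Aza libraries, EpiSC dXist library 2 and EpiSC WT library 2, called total-like here, and 0.0152% to 0.279% in the other 9 libraries, called polyA-like. Each EpiSC genotype therefore had 1 library of each type, while in XEN the type cannot be told apart from treatment of the wild type. XEN dXist Aza library 1 stood apart, with a mean correlation of 0.805 with the other XEN libraries, against 0.877 to 0.902 for those. The XEN WT Aza libraries had a lower chi-square per gene (mean 3.89, median 0.856) than any other pair of a group (means 75.5 to 524, medians 7.26 to 47.2), and were kept as 2. This measure grows with the number of counts. These libraries held the fewest, 5848454 and 9181835, so the pairs are not compared at equal depth. Xist, the deleted gene, was at 0.261 to 0.448 CPM in EpiSC dXist, against 197 to 835 CPM in EpiSC WT, and at 1.21 to 5.02 CPM in XEN dXist, against 1560 to 1700 CPM in XEN WT. It was at 13.3 and 233 CPM in XEN dXist Aza libraries 1 and 2, against 1610 and 1180 CPM in XEN WT Aza.

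Wild-type EpiSC were set against wild-type XEN to describe where the genes are used. Of the 10 genes, 8 were higher in EpiSC and 1, Sall4, was lower, each at an adjusted p under 0.05 (edgeR's quasi-likelihood test, Benjamini-Hochberg over 19733 genes). Of all genes tested, 30.8% were called, 16.8% higher and 14.1% lower. The median log2 change of the 10 genes was 8.18, also with Fgf5 at its lower bound, beside 0.13 over all genes. Sox2, Pou3f1, Fgf5, Otx2 and Utf1 held 0 to 8 counts in XEN WT and passed the filter on low counts through their EpiSC levels. Lin28a passed in neither direction. Fewer cells of a type and less RNA per cell cannot be told apart in bulk RNA.

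The 3 core factors stood under 1 CPM in XEN WT, and Sox2 near the floor of 3 counts. Pou5f1 was counted at 211 and 247 CPM (counts scaled to a common library size) in EpiSC WT libraries 1 and 2, against 0.708 and 0.82 CPM in XEN WT libraries 1 and 2. Its mean was 229 ± 25.6 CPM in EpiSC WT and 0.764 ± 0.0795 CPM in XEN WT (SD, n = 2 each), a 300-fold difference (log2 change 8.29, SE 0.93, adjusted p = 0.000366). Sox2, the HMG-box partner of OCT4, was at 88.1 and 50.1 CPM in EpiSC WT, against 0.101 and 0 CPM in XEN WT, where both libraries together held 3 counts. Its ratio was 1440, with a 95% counting interval of 494 to 7000 that covers counting error only (log2 change 10.33, SE 0.92, adjusted p = 0.000353). Nanog, the homeodomain factor of the core, was at 35.5 and 28.8 CPM in EpiSC WT and at 0.371 and 0.684 CPM in XEN WT, a 61-fold difference (log2 change 5.99, SE 0.63, adjusted p = 0.000264). For each of the 3, the libraries of the groups did not overlap, as for 66.1% of all genes tested.

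The genes of the primed state showed the same split, with Zic2 the least sharp. Pou3f1, a POU-domain factor of the early neural plate and epiblast, was at 114 and 101 CPM in EpiSC WT and at 0.135 and 0.0342 CPM in XEN WT (log2 change 10.29, SE 0.68, adjusted p = 0.000111). Fgf5, which encodes a secreted FGF, was at 33.0 and 17.1 CPM in EpiSC WT and had no count in either XEN WT library. Its level was therefore at least 492-fold higher in EpiSC WT, taking 3 counts over both XEN WT libraries as the floor (adjusted p = 0.00044). Otx2, a homeodomain factor of anterior identity, was 266-fold higher, at 37.9 and 33.9 CPM in EpiSC WT and 0.202 and 0.0684 CPM in XEN WT (log2 change 8.06, SE 0.61, adjusted p = 0.000185). Utf1 was 445-fold higher, at 65.2 and 56.2 CPM in EpiSC WT and 0.0337 and 0.239 CPM in XEN WT (log2 change 8.83, SE 0.71, adjusted p = 0.00024). The 4 genes did not overlap between the groups, like most genes tested. Where XEN WT held few counts, the size of the change moved with the library left out: the log2 change was 8.06 without XEN WT library 1 and 10.72 without library 2 for Utf1 (1 and 7 counts in libraries 1 and 2), 9.05 and 7.52 for Otx2 (6 and 2 counts) and 11.54 and 9.67 for Pou3f1 (4 and 1 counts). Each of these 3 was called both times. For Sox2 it was 9.42 without library 2, and without library 1 no XEN WT count is left. Zic2, a zinc finger factor, was at 323 and 85.2 CPM in EpiSC WT and at 3.07 and 8.31 CPM in XEN WT, where it was the best measured of the genes higher in EpiSC. The difference was 35.9-fold (log2 change 5.22, SE 1.47, adjusted p = 0.03). Its call was lost without EpiSC WT library 1 (adjusted p = 0.126), XEN WT library 1 (0.144) or XEN WT library 2 (0.0939), with log2 changes of 4.07, 4.69 and 6.1.

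Lin28a and Sall4 were abundant in both cell types. Sall4 was at 148 and 145 CPM in EpiSC WT, against 339 and 529 CPM in XEN WT, so that the EpiSC mean was 2.97-fold lower (log2 change -1.49, SE 0.34, adjusted p = 0.0103). The call was lost without EpiSC WT library 1 (-1.42, adjusted p = 0.0663) or XEN WT library 2 (-1.13, adjusted p = 0.0735). Lin28a was at 359 and 287 CPM in EpiSC WT and at 324 and 745 CPM in XEN WT (log2 change -0.65, SE 0.59, adjusted p = 0.418), so the groups overlapped, and the log2 change was 0.07 without XEN WT library 2. Within the polyA-like type, EpiSC WT library 1 alone was set against XEN WT, and this lone library was assumed to vary like the other groups. The same 9 genes were called: Sall4 had a log2 change of -1.52 (adjusted p = 0.04), Zic2 of 5.87 (adjusted p = 0.0391), and Pou5f1, Sox2, Nanog, Pou3f1, Otx2 and Utf1 of 6.1 to 10.67.

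**Figure D1:**
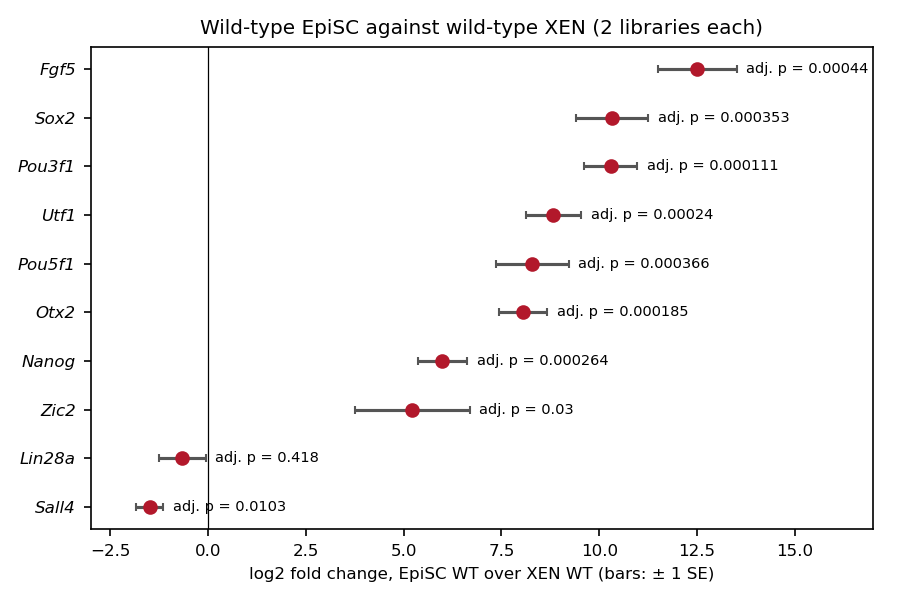
Log2 fold change of the 10 genes in EpiSC WT over XEN WT (horizontal axis), with bars of 1 SE either way and the adjusted p of edgeR's quasi-likelihood test beside each point, 2 libraries a group. The 8 genes higher in EpiSC lie between 5.22 and 12.51, Lin28a lies at -0.65 and Sall4 at -1.49, and the point of Fgf5, which had no count in XEN WT, depends on the prior count.

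Set per kilobase of exon (GENCODE vM21), which allows levels of different genes to be ordered, Pou5f1 had the highest mean in EpiSC dXist with 225 ± 71.1 CPM per kb and in EpiSC WT with 102 ± 11.4 CPM per kb (SD, n = 2 each). The EpiSC WT order went on with Lin28a (80.8 ± 12.8 CPM per kb), Zic2 (70.8 ± 58.3), Utf1 (49.5 ± 5.18), Sox2 (33.6 ± 13), Pou3f1 (27.9 ± 2.52) and Sall4 (26.4 ± 0.351), and ended with Nanog (14.3 ± 2.12), Fgf5 (10 ± 4.49) and Otx2 (8.51 ± 0.665). Zic2 ran from 29.6 to 112 CPM per kb and so overlapped Pou5f1, Lin28a, Utf1, Sox2 and Pou3f1, and in EpiSC WT library 1 it stood above the 93.9 CPM per kb of Pou5f1. Sox2 overlapped Pou3f1 and Sall4, Pou3f1 overlapped Sall4, and Fgf5 overlapped Nanog and Otx2. In XEN WT the order opened with Lin28a (134 ± 74.5 CPM per kb) and Sall4 (78.4 ± 24.3), whose ranges overlapped. Zic2 followed at 1.97 ± 1.29 CPM per kb, and the other 7 genes stood at 0.34 CPM per kb or less.

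**Figure D2:**
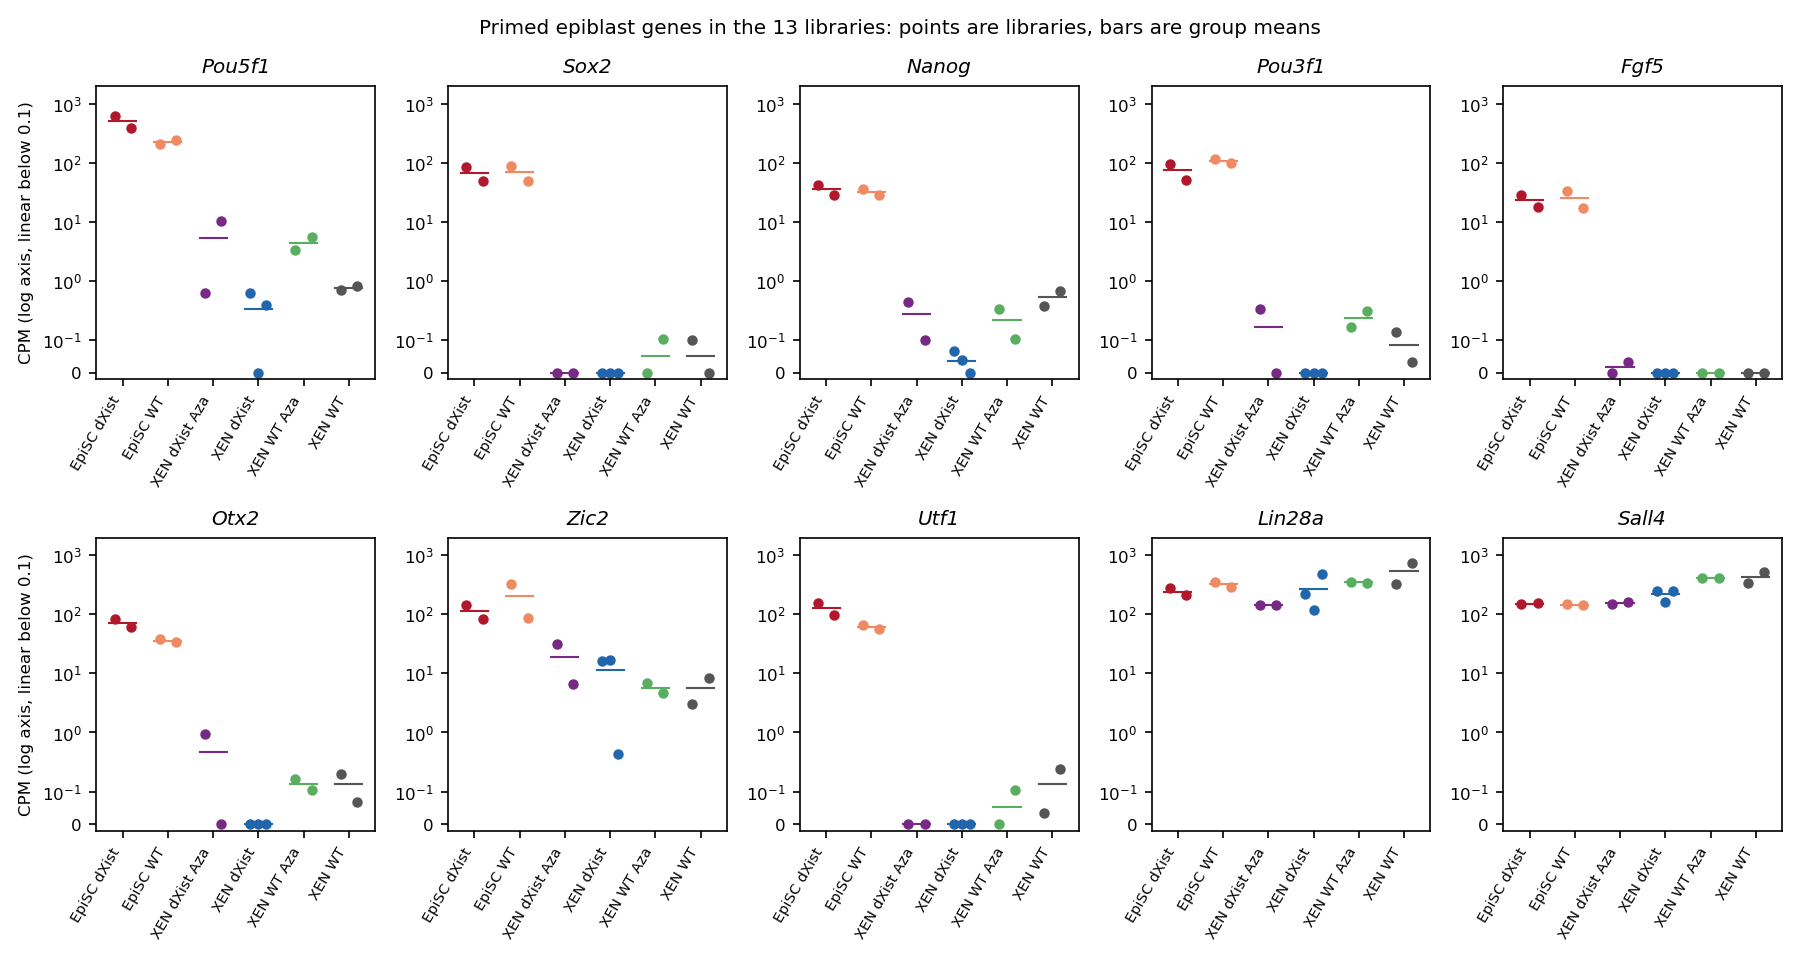
Level of each gene in each of the 13 libraries in CPM (vertical axis, logarithmic and linear below 0.1 CPM), by group, with a point per library and a bar at the group mean. Lin28a and Sall4 stand at 117 CPM or more in every library, while the other 8 genes stand at 17.1 CPM or more in all 4 EpiSC libraries and, Zic2 and Pou5f1 aside, at 0.951 CPM or less in all 9 XEN libraries.

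Called genes of the same families were mostly higher in EpiSC WT, though Lin28b, Sall2 and Otx1 did not follow their own member. Of 19 listed paralogues, 13 passed the filter on low counts, 8 were called higher and 2 lower in EpiSC WT than in XEN WT (median log2 change 5.17, also with genes at their bound). Lin28b, the paralogue of Lin28a, averaged 189 ± 76.8 CPM in EpiSC WT and 0.239 ± 0.29 CPM in XEN WT (log2 change 9.67, SE 0.83, adjusted p = 0.000107), whereas Lin28a passed in neither direction. Among the Sall factors, Sall1 was lower like Sall4, at 43.9 ± 16.6 CPM in EpiSC WT and 212 ± 38.4 CPM in XEN WT (log2 change -2.21, SE 0.37, adjusted p = 0.00258), while Sall2 was higher, at 116 ± 1.61 CPM in EpiSC WT and 42.9 ± 0.924 CPM in XEN WT (log2 change 1.5, SE 0.29, adjusted p = 0.00485). Otx1 was lower, with 0.0463 ± 0.0655 CPM in EpiSC WT and 6.05 ± 0.781 CPM in XEN WT (log2 change -7.05, SE 1.64, adjusted p = 0.0115), opposite to Otx2.

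The close relatives of Sox2, Sox1 and Sox3, averaged 18.7 ± 7.14 and 8.09 ± 0.807 CPM in EpiSC WT and had no count in XEN WT (adjusted p = 0.000783 and 0.00109). Zic5, a relative of Zic2, averaged 122 ± 48.1 CPM in EpiSC WT, against 3.54 ± 1.67 CPM in XEN WT (log2 change 5.17, adjusted p = 0.00603). The POU factor Pou2f2 was called higher in EpiSC (log2 change 5.29, SE 1.38, adjusted p = 0.0184), and so was Fgf4 (log2 change 6.74, SE 1.2, adjusted p = 0.00358). Pou2f1, which is broadly expressed, averaged 79.8 ± 27.3 CPM in EpiSC WT and 104 ± 34.6 CPM in XEN WT (adjusted p = 0.543), and Sall3 averaged 0.127 ± 0.0164 CPM in EpiSC WT and 0.527 ± 0.269 CPM in XEN WT (adjusted p = 0.429).

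Other markers describe the cells in which these levels were taken. Of 24 tested genes of the wider epiblast and pluripotency list, 19 were called higher and none lower in EpiSC WT (median log2 change 5.06), among them the growth factor Nodal at 66.3 ± 19.4 CPM, against 0.0169 ± 0.0238 CPM in XEN WT. Its co-receptor Tdgf1 (Cripto) was at 626 ± 161 CPM in EpiSC WT and 0.0854 ± 0.121 CPM in XEN WT, and the kinase gene Pim2 at 414 ± 18.1 CPM in EpiSC WT and 5.47 ± 1.69 CPM in XEN WT. Naive pluripotency genes did not move one way, with 3 of 12 called higher and 5 lower (median -1.76). The naive factor Klf4 was at 1.63 ± 0.0727 CPM in EpiSC WT and 483 ± 157 CPM in XEN WT (log2 change -8.16, SE 0.59, adjusted p = 6.47e-05), and Esrrb was at 4.59 ± 1.05 CPM in EpiSC WT with no count in XEN WT (adjusted p = 0.00104). Of 19 tested extraembryonic endoderm genes, 18 were lower in EpiSC WT (median -6.9), and Hnf4a and Ttr had no count there. Their summed level was 1690 and 1510 CPM in EpiSC WT, against 82900 and 118000 CPM in XEN WT. Trophoblast genes had 2 of 9 called higher and 1 lower in EpiSC WT (median -1.66). Their summed level, most of it Krt8, was 38 and 43.1 CPM in EpiSC WT and 571 and 904 CPM in XEN WT. Primitive streak genes had 3 of 9 called higher and none lower, at a summed 23.8 and 15.7 CPM in EpiSC WT and 8.93 and 3.73 CPM in XEN WT. Markers of other cells also stood higher in EpiSC WT, namely 13 of 14 tested fibroblast genes (summed level 1050 and 879 CPM, against 37.1 and 26.6 CPM in XEN WT) and 6 of 10 tested neural progenitor genes, with 1 lower (624 and 376 CPM, against 73.7 and 91.6 CPM in XEN WT). The neural sum in EpiSC WT is mostly Nes, which averaged 468 ± 164 CPM there and 23.6 ± 9.97 CPM in XEN WT. The part of these markers of other cells in the levels of the 10 genes was not tested.

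The let-7 axis, on which Lin28a acts, was called higher in EpiSC WT for 4 of 12 genes and lower for 1. Hmga1 averaged 326 ± 63.1 CPM in EpiSC WT and 12.9 ± 13.6 CPM in XEN WT (log2 change 4.76, SE 1.24, adjusted p = 0.0209), and Igf2bp3, a let-7 target, 211 ± 100 CPM in EpiSC WT and 42.1 ± 23.4 CPM in XEN WT (log2 change 2.39, SE 0.47, adjusted p = 0.00571). Igf2bp2 was lower, at 195 ± 126 CPM in EpiSC WT and 642 ± 244 CPM in XEN WT (log2 change -1.69, SE 0.5, adjusted p = 0.03). MicroRNAs themselves are not counted by this assay.

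The question of the Xist deletion in EpiSC was whether the genes differ between dXist and wild-type cells. None of the 10 was called by edgeR's quasi-likelihood test over 17132 genes, where 0% of genes were called in either direction, and none by DESeq2, which called 491 genes. At an unadjusted p under 0.05 stood 3 of the 10, Pou5f1, Otx2 and Utf1, beside 1741 genes (10.2%) of all. These 3 were higher in EpiSC dXist in both library types.

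Pou5f1 was at 620 and 394 CPM in EpiSC dXist libraries 1 and 2, against 211 and 247 CPM in EpiSC WT libraries 1 and 2. The groups did not overlap and the mean was 2.21-fold higher in EpiSC dXist (log2 change 1.15, SE 0.36, adjusted p = 0.393). Otx2 was at 84.3 and 60 CPM in EpiSC dXist, against 37.9 and 33.9 CPM in EpiSC WT, 2.01-fold higher (log2 change 1.03, SE 0.27, adjusted p = 0.318). Utf1 was at 157 and 96.1 CPM in EpiSC dXist, against 65.2 and 56.2 CPM in EpiSC WT, 2.08-fold higher (log2 change 1.08, SE 0.31, adjusted p = 0.359). None of these 3 genes overlapped between the genotypes, and neither did Pou3f1, Lin28a, Sall4 and 40.8% of all genes tested.

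Within the polyA-like type (library 1 of each genotype), the log2 difference of EpiSC dXist from EpiSC WT was 1.55 for Pou5f1, 1.15 for Otx2 and 1.27 for Utf1, and within the total-like type (library 2 of each) 0.67, 0.82 and 0.77. With library type as a term in the same fit, which leaves 1 residual degree of freedom, these 3 genes were called higher (log2 changes 1.14, 1.02 and 1.05, adjusted p = 0.021, 0.00782 and 0.0073). Their SEs were 0.36, 0.29 and 0.3 with the term and 0.36, 0.27 and 0.31 without it. The adjusted p thus fell with little change in the log2 changes or SEs of these genes. In the fit with the term, 11.4% of all genes were called, 4.91% higher and 6.53% lower. The library type is also the replicate number in EpiSC, so type, number and whatever else they share cannot be told apart.

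The other 7 genes differed less between the EpiSC genotypes. Sox2 was at 84.4 and 48.4 CPM in EpiSC dXist and at 88.1 and 50.1 CPM in EpiSC WT (log2 change -0.03, SE 0.39), so that library 1 exceeded library 2 in both genotypes by more than the genotypes differed. Nanog was at 42.8 and 28.4 CPM in EpiSC dXist and at 35.5 and 28.8 CPM in EpiSC WT (log2 change 0.17, SE 0.28). Fgf5 was at 28.7 and 18.1 CPM in EpiSC dXist and at 33.0 and 17.1 CPM in EpiSC WT (log2 change -0.06, SE 0.39). These 3 genes overlapped between the genotypes. Sall4 stood at 149 and 156 CPM in EpiSC dXist and 148 and 145 CPM in EpiSC WT (log2 change 0.09, SE 0.26), the narrowest range of the 10 genes over the 4 EpiSC libraries.

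Pou3f1 was lower in both library types, at 97.2 and 52.1 CPM in EpiSC dXist and 114 and 101 CPM in EpiSC WT (log2 change -0.51, SE 0.35, adjusted p = 0.672), and Lin28a likewise, at 276 and 211 CPM in EpiSC dXist and 359 and 287 CPM in EpiSC WT (log2 change -0.38, SE 0.3, adjusted p = 0.709). Neither was called with library type as a term (adjusted p = 0.23 and 0.542). Zic2 was at 146 and 84.5 CPM in EpiSC dXist, against 323 and 85.2 CPM in EpiSC WT, so that its difference of -1.14 on the log2 scale within the polyA-like type was -0.01 within the total-like type. Among the genes of the primed state, the log2 difference was thus positive for Otx2 and negative for Pou3f1 within both types, and neither passed the test without the library-type term.

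**Figure D3:**
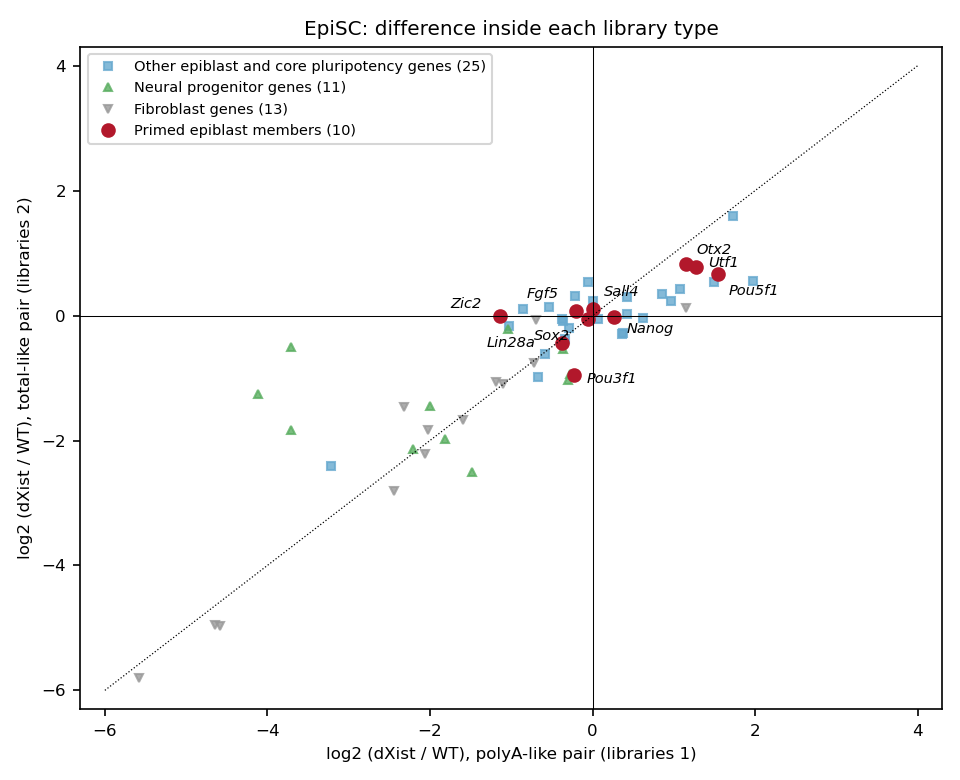
Log2 ratio of EpiSC dXist to EpiSC WT within the polyA-like libraries (horizontal axis) and within the total-like libraries (vertical axis), for the 10 genes (red circles) and genes of 3 other lists with counts in all 4 libraries. The dotted line marks equal differences, and Pou5f1, Otx2 and Utf1 lie at 1.15 to 1.55 and at 0.67 to 0.82, while most fibroblast and neural progenitor genes lie below 0 on both axes.

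Markers of other cells moved with the EpiSC genotype, and their part in the values of Pou5f1, Otx2 and Utf1 was not tested. Without the library-type term no gene was called. With it, 11 of 14 tested fibroblast genes and 6 of 10 tested neural progenitor genes were called lower in EpiSC dXist, and none higher. The summed level of the fibroblast list was 248 to 327 CPM in EpiSC dXist and 879 to 1050 CPM in EpiSC WT. Lum and S100a4 were at 0 in EpiSC dXist. In EpiSC WT Lum averaged 0.761 ± 0.355 CPM, while S100a4 averaged 0.0232 ± 0.0327 CPM and so was near absent there too. The collagen gene Col3a1 averaged 5.16 ± 0.895 CPM in EpiSC dXist and 140 ± 2.17 CPM in EpiSC WT (log2 change -4.74 with the term, adjusted p = 1.38e-39). That fit leaves 1 residual degree of freedom, so so small a p does not reflect replication. Without the term, the smallest adjusted p of edgeR's quasi-likelihood test over all genes was 0.102. The neural list summed to 295 to 311 CPM in EpiSC dXist and 376 to 624 CPM in EpiSC WT, with none of its 10 tested genes at 0. These sums are mostly Nes, which stood at 284 to 303 CPM in EpiSC dXist and 351 to 584 CPM in EpiSC WT. Extraembryonic endoderm genes had 5 of 13 called lower with the term, at a summed 969 to 1070 CPM in EpiSC dXist and 1510 to 1690 CPM in EpiSC WT.

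Relatives and partners of the 10 genes were mixed in the same fit with library type. That fit leaves 1 residual degree of freedom, and without the term no gene was called, so its small adjusted p rest on little replication. Of 24 tested genes of the wider epiblast and pluripotency list, 3 were called higher, Tfap2c (log2 change 1.69), Sox3 (1.31) and Slc7a3 (1.04), and none lower. Of 11 tested paralogues, Sox3 and Sall1 (1.26) were higher and Sox1 (-2.15, adjusted p = 3.43e-07) and Pou3f3 (-1.8) lower. Thus Sox1 averaged 4.11 ± 1.44 CPM in EpiSC dXist and 18.7 ± 7.14 CPM in EpiSC WT, and Sox3 21.2 ± 11.9 CPM in EpiSC dXist and 8.09 ± 0.807 CPM in EpiSC WT, while their relative Sox2 had a log2 change of -0.03. Of 9 tested naive genes, Klf2 (log2 change 3.88, adjusted p = 4.52e-14) and Esrrb (1.15, adjusted p = 0.0218) were higher. Of the 12 let-7 axis genes, Hmga2 (-2.97), Igf2bp2 (-1.78) and Igf2bp3 (-0.92) were called lower, beside the uncalled log2 change of -0.38 of Lin28a.

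In XEN cells the Xist deletion was read on the genes that had counts. Only 5 of the 10 passed the filter on low counts in the XEN fit (Pou5f1, Nanog, Zic2, Lin28a and Sall4), and none was called in XEN dXist against XEN WT by edgeR, where 0.0217% of 18393 genes were called, or by DESeq2, which called 455 genes. Nanog and Sall4 had an unadjusted p under 0.05, as did 10.7% of all genes. All 5 libraries were polyA-like.

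Sall4 was at 250, 163 and 251 CPM in XEN dXist libraries 1 to 3, against 339 and 529 CPM in XEN WT. The groups did not overlap, as for 28.5% of all genes tested, and the mean was 1.96-fold lower in XEN dXist (log2 change -0.98, SE 0.33, adjusted p = 0.388). Lin28a was at 218, 117 and 474 CPM in XEN dXist and at 324 and 745 CPM in XEN WT (log2 change -0.98, SE 0.55, adjusted p = 0.547), with library 3 of XEN dXist inside the wild-type range. Without that library its log2 change was -1.69 (adjusted p = 0.0873). Zic2 was at 16.2, 17 and 0.428 CPM in XEN dXist and at 3.07 and 8.31 CPM in XEN WT (log2 change 0.97, SE 1.17, adjusted p = 0.799), so XEN dXist library 3 was below the wild type and the other two above it, and the log2 change was 1.54 without it.

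Nanog summed to 3 counts over the 3 XEN dXist libraries, against 31 counts over the 2 XEN WT libraries, a ratio of 0.0681 with a 95% counting interval of 0.0133 to 0.218 (log2 change -3.71, SE 1.19, adjusted p = 0.374). Pou5f1 was at 0.632, 0 and 0.392 CPM in XEN dXist and at 0.708 and 0.82 CPM in XEN WT (log2 change -1.15, SE 1.27, adjusted p = 0.779). Sox2, Pou3f1, Fgf5, Otx2 and Utf1 had no count in any XEN dXist library, against 3, 5, 0, 8 and 8 counts in that order over both XEN WT libraries. Of the 8 counts each, XEN WT libraries 1 and 2 held 6 and 2 for Otx2 and 1 and 7 for Utf1. These 5 genes were not tested in this fit.

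The effect of Aza was asked in each XEN genotype. In XEN dXist Aza against XEN dXist, all of them polyA-like libraries, edgeR called none of the 5 genes tested, and 0.0761% of all genes. Pou5f1 alone had an unadjusted p under 0.05, as had 26.8% of all genes. Pou5f1 was at 0.615 and 10.2 CPM in XEN dXist Aza libraries 1 and 2 (11 and 304 counts), against 0.632, 0 and 0.392 CPM in XEN dXist. Library 2 stood above and library 1 within the untreated range (log2 change 3.97, SE 1.31, adjusted p = 0.11). DESeq2 called it (log2 change 4.01, adjusted p = 0.00558), and so did edgeR with no filter (3.95, adjusted p = 0.000496). Without library 2 the log2 change was 0.8 (adjusted p = 0.702, with the lone treated library assumed to vary like the other groups), so the difference rests on that library. Its Pou5f1 level of 10.2 CPM compares with 620 and 394 CPM in EpiSC dXist. The same library is the one labelled dXist in which Xist stood at 233 CPM, against 1.21 to 5.02 CPM in XEN dXist, and the part of this in the Pou5f1 value was not tested.

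None of the other genes with counts in XEN dXist was called after Aza. Nanog was at 0.448 and 0.1 CPM in XEN dXist Aza, against 0.0665, 0.039 and 0 CPM in XEN dXist (log2 change 2.73, SE 1.23, adjusted p = 0.189), on 11 counts against 3. Zic2 was at 31.9 and 6.75 CPM in XEN dXist Aza, against 16.2, 17 and 0.428 CPM in XEN dXist, with overlap. Lin28a was at 145 and 143 CPM in XEN dXist Aza, against 218, 117 and 474 CPM in XEN dXist (log2 change -0.91, SE 0.57, adjusted p = 0.324). Sall4 was at 151 and 163 CPM in XEN dXist Aza, against 250, 163 and 251 CPM in XEN dXist (log2 change -0.49, SE 0.33, adjusted p = 0.363). Otx2 had 17 counts in XEN dXist Aza library 1 and none in library 2 or in any XEN dXist library. It did not pass the filter on low counts and so was not among the 5, and edgeR with no filter called it on those 17 counts (adjusted p = 0.0279). Library 1 of XEN dXist Aza, the one that stood apart, had no count of Sox2, Fgf5 or Utf1.

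In XEN WT Aza against XEN WT, none of the 5 genes was called by edgeR or DESeq2 and none had an unadjusted p under 0.05, beside 0.582% of all genes called by edgeR and 12.4% with such a p. The XEN WT Aza libraries were total-like and the XEN WT libraries polyA-like, so Aza cannot be told apart from the library type here. Pou5f1 was at 3.3 and 5.56 CPM in XEN WT Aza (20 and 53 counts), against 0.708 and 0.82 CPM in XEN WT, 5.8-fold higher without overlap, as 60.9% of all genes tested were apart (log2 change 2.69, SE 1.45, adjusted p = 0.492). Sall4 was at 411 and 407 CPM in XEN WT Aza and at 339 and 529 CPM in XEN WT, and Lin28a at 356 and 343 CPM in XEN WT Aza and at 324 and 745 CPM in XEN WT, both with the treated libraries inside the untreated range. Zic2 was at 6.76 and 4.72 CPM in XEN WT Aza and at 3.07 and 8.31 CPM in XEN WT. Nanog had 3 counts over the XEN WT Aza libraries, against 31 over XEN WT, a CPM ratio of 0.366 with a 95% counting interval of 0.0716 to 1.17.

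Between the treated genotypes, XEN dXist Aza against XEN WT Aza, edgeR called none of the 5 genes and 0.647% of all genes. Sall4 and Lin28a had an unadjusted p under 0.05, as had 16.7% of all genes. Sall4 was at 151 and 163 CPM in XEN dXist Aza, against 411 and 407 CPM in XEN WT Aza, 2.61-fold lower without overlap, as 55.3% of all genes tested were apart (log2 change -1.55, SE 0.37, adjusted p = 0.131). It was called by DESeq2 (-1.46, adjusted p = 0.0185) and by edgeR without XEN dXist Aza library 2 (-1.63, adjusted p = 0.0352). That fit leaves as the only treated dXist library the one that stood apart, assumes it to vary like the other groups and called 3321 of 19827 genes. Lin28a was at 145 and 143 CPM in XEN dXist Aza, against 356 and 343 CPM in XEN WT Aza, 2.43-fold lower (log2 change -1.45, SE 0.62, adjusted p = 0.286). Library type differs between these groups in the same way as genotype, so the pair cannot be told apart. The untreated comparison, within 1 library type, had log2 changes of -0.98 for both genes. Neither was called there by edgeR (adjusted p = 0.388 for Sall4 and 0.547 for Lin28a), and Lin28a overlapped between the untreated genotypes.

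**Figure D4:**
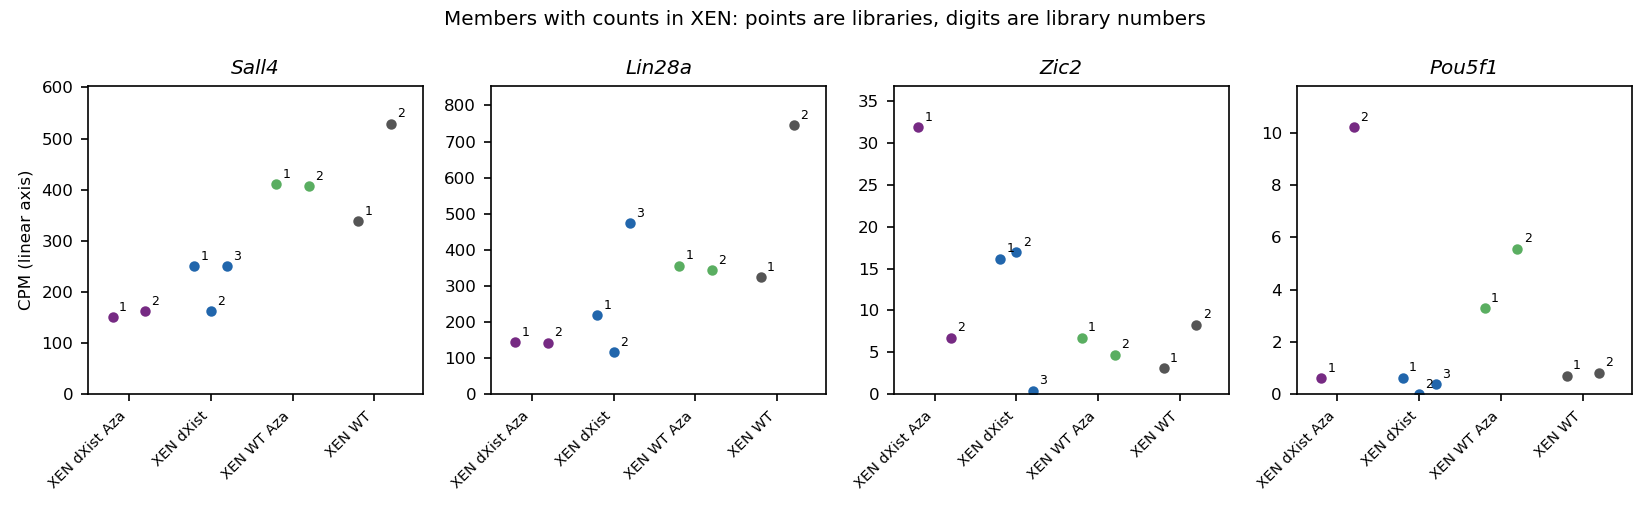
Levels in CPM (vertical axis, linear, a scale for each gene) of Sall4, Lin28a, Zic2 and Pou5f1 in the 9 XEN libraries, by group, with the library number beside each point. Sall4 lies at 151 to 163 CPM in XEN dXist Aza, 163 to 251 in XEN dXist, 407 to 411 in XEN WT Aza and 339 to 529 in XEN WT. A split by genotype over treated and untreated libraries was not tested, and the XEN WT Aza libraries alone are total-like. Sall4 was not called by edgeR's quasi-likelihood test between the untreated genotypes (adjusted p = 0.388) or the treated ones (0.131). Pou5f1 reaches 10.2 CPM in XEN dXist Aza library 2 alone.

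Differences between effects were tested as interactions. The Aza effect in XEN dXist minus that in XEN WT was called for none of the 5 genes by edgeR or DESeq2, and none had an unadjusted p under 0.05, beside 0.245% of all genes called by edgeR. The largest of them were 3.91 (SE 1.81, adjusted p = 0.62) for Nanog and 1.27 (SE 1.86, adjusted p = 0.86) for Pou5f1. The dXist effect in EpiSC minus that in XEN was called for none of the 10 genes by edgeR, beside 0.0101% of all genes, while 6 of the 10 and 10.3% of all genes had an unadjusted p under 0.05. It was 3.9 (SE 0.84, adjusted p = 0.208) for Nanog, 2.29 (SE 1.01, adjusted p = 0.476) for Pou5f1 and 1.07 (SE 0.45, adjusted p = 0.46) for Sall4. The other three of the 6, Pou3f1, Otx2 and Utf1, passed the filter on low counts through EpiSC alone and had 0 counts in XEN dXist against 5, 8 and 8 in XEN WT. The size of their interaction depends on the prior count and is not given, and their calls under other settings, listed with the processing alternatives, rest on those counts. For Nanog, DESeq2 (adjusted p = 0.0135), edgeR with no filter (0.00341) and edgeR without XEN dXist library 3 (0.0335) called the interaction, on 3 counts in XEN dXist against 31 in XEN WT. Pou5f1 was called with no filter (adjusted p = 0.0183).

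Over the 13 libraries the genes fell into a block of 8 and a remainder. The correlation of each gene's log2 level with the mean of the standardised levels of all 10 was 0.94 to 0.98 for Pou5f1, Sox2, Nanog, Pou3f1, Fgf5, Otx2 and Utf1, 0.81 for Zic2, 0.23 for Lin28a and -0.41 for Sall4. Among all other genes with a mean of at least 5 CPM, the 6 whose log2 levels were most like that mean were Ror2 (r = 0.9888), Zdbf2 (0.9857), H2afy2 (0.9825), Syt13 (0.9816), Cdk6 (0.9812) and Cdk5r2 (0.9803). These coefficients over 13 libraries describe the pattern. For the 10 genes the mean includes the gene itself, and 8 of the 10 were called higher in EpiSC WT than in XEN WT. The split is therefore in part fixed by how the mean is made. The libraries fall into 2 cell types, and no coefficient was taken within a cell type.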

How the data were processed

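The authors deposited 1 table of read counts per gene, whole numbers with no normalisation, for 13 libraries. Per the submitters' processing notes, STAR 2.7.9a, FastQC and featureCounts 2.0.1 were used, and the build was mm10 (GRCm38). Per the labels' protocols, RNA was extracted with Trizol, and the kits were TruSeq stranded and NEBNext Ultra, with no kit tied to a library. The sources used here give no strand setting, treatment of multi-mapped reads or annotation for the counting. Symbols came from GENCODE vM21, which matched 38240 of 38377 identifiers (99.64%), and the other 137 were kept without a name.

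The test was edgeR's quasi-likelihood F test (edgeR 4.0.16 in R 4.3.3), with a robust fit, TMM scaling and the filterByExpr filter. A gene was called where its Benjamini-Hochberg adjusted p, taken over all genes tested, was under 0.05. EpiSC WT against XEN WT and the interaction of the cell types used the 9 untreated libraries (5 residual degrees of freedom), EpiSC dXist against EpiSC WT the 4 EpiSC libraries (2), and the other comparisons the 9 XEN libraries (5). The SE was obtained by dividing the size of the log2 change by the root of the F statistic. CPM are counts scaled to a common library size with TMM factors over the 13 libraries, given as mean ± SD. Against a group at 0, a fold is a bound that takes 3 counts in the whole group as the floor, and with 1 to 3 counts a ratio has an exact 95% interval. Both cover counting error only. This floor was 0.084 to 0.495 CPM in a single library. Where a left-out library leaves 1 in a group, that library is assumed to vary like the other groups. The procedure was also run on simulated counts with the same spread for every gene, large planted changes and no library types. That run does not show how the procedure performs on small changes or on libraries as uneven as these. Alternatives were other size factors, DESeq2 1.42.0, no filter, each library left out, a replicate block, the wild-type libraries fitted alone and, chosen after the data were seen, both XEN WT Aza libraries summed as 1 sample.

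The named genes were the 10 genes in every comparison, Xist, up to 6 called genes of each list per comparison with the smallest adjusted p, listed paralogues with a mean of at least 1 CPM in a group, and the 6 genes most like the mean of the 10 by Pearson's r (log2 of CPM plus 0.5). The lists were the primed genes, other epiblast and core pluripotency genes, paralogues, naive, neural progenitor, extraembryonic endoderm, primitive streak, fibroblast and trophoblast genes, let-7 axis genes and 3 RNAs without poly(A) tails. The genes and lists were chosen with earlier results of these data known.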

Additional observations from a re-analysis of the deposited data

How the results depend on the processing

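Among the 10 genes, 499 of 550 alternative log2 changes kept their direction and their side of the threshold, 18 passed it in addition, 5 fell short of it and 28 changed direction. Counts of called genes over the whole table moved far more with the method than the values of these genes did, and the cause was not tested. The DESeq2 Wald test called 491 genes in EpiSC dXist against EpiSC WT, 455 in XEN dXist against XEN WT, 667 in XEN WT Aza against XEN WT, 2687 in XEN dXist Aza against XEN dXist, 960 in XEN dXist Aza against XEN WT Aza, 211 for the Aza interaction and 403 for the dXist interaction. With no filter on low counts edgeR called 676, 684, 747, 2750, 885, 337 and 616 in the same order of comparisons. The edgeR counts with the filter were 0, 4, 107, 14, 119, 45 and 2. Of the 10 genes, DESeq2 called Pou5f1 alone (1 gene) in XEN dXist Aza against XEN dXist, Sall4 alone (1 gene) in XEN dXist Aza against XEN WT Aza, and Nanog, Otx2 and Utf1 (3 genes) for the dXist interaction. With no filter, edgeR called 2 in XEN dXist Aza against XEN dXist (Pou5f1 and Otx2) and 4 for the dXist interaction (the same 3 and Pou5f1), and the uncalled log2 change of Sall4 in XEN WT Aza against XEN WT was -0.03. With DESeq2's size factors 29 genes were called in XEN dXist Aza against XEN dXist. With both XEN WT Aza libraries summed as 1 sample, 62 genes were called against XEN WT, and 66 in XEN dXist Aza against XEN WT Aza.

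The labels do not say that a replicate number pairs libraries. In XEN dXist the number follows the name of the deletion in treated and untreated titles alike, and library 3 has no treated counterpart. Whether a number there denotes a shared clone is not stated, and the main tests of Aza did not pair libraries. Same-numbered EpiSC libraries deviated together (correlation 0.77, a single observation, since with 2 libraries a group both pairs give the same value), and there the number is also the library type. In XEN the correlations were -0.15 to 0.09. A replicate block called 1960 genes and 3 of the 10 (Pou5f1, Otx2 and Utf1) in EpiSC dXist against EpiSC WT, 368 genes in XEN dXist against XEN WT, 131 in XEN dXist Aza against XEN dXist, and 743 genes and 2 of the 10 (Nanog and Otx2) for the dXist interaction. With the block the uncalled log2 changes of Pou5f1 in XEN dXist Aza against XEN WT Aza and of Lin28a for the Aza interaction were -0.05 and 0.23.

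With each library left out in turn, the genes called ranged from 3045 (without EpiSC WT library 1) to 4864 in EpiSC WT against XEN WT, where 6085 were called with all libraries. They ranged from 0 to 174 (without EpiSC WT library 2) in EpiSC dXist against EpiSC WT, from 1 to 510 (without XEN dXist library 3) in XEN dXist against XEN WT, and from 44 to 61 in XEN WT Aza against XEN WT. Without XEN dXist Aza library 2 the counts were the highest in 3 comparisons, with ranges of 0 to 4730 in XEN dXist Aza against XEN dXist, 53 to 3321 in XEN dXist Aza against XEN WT Aza and 28 to 1605 for the Aza interaction. The dXist interaction ranged from 1 to 670 (without XEN dXist library 3). Of the 10 genes, 0 to 1 were called in XEN dXist Aza against XEN dXist and 0 to 1 in XEN dXist Aza against XEN WT Aza, namely Otx2 and Sall4 without XEN dXist Aza library 2, and 0 to 2 for the dXist interaction, Nanog and Otx2 without XEN dXist library 3.

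Uncalled log2 changes that crossed 0 when a library was left out had these ranges. In EpiSC WT against XEN WT, Lin28a ranged from -1.11 to 0.07. In EpiSC dXist against EpiSC WT, Sox2 ranged from -0.42 to 0.36, Nanog from -0.1 to 0.39, Fgf5 from -0.41 to 0.41, Zic2 from -1.4 to 0.39 and Sall4 from 0 (negative before rounding) to 0.17. In XEN WT Aza against XEN WT, Zic2 ranged from -0.36 to 0.96, Sall4 from -0.2 to 0.34 and Lin28a from -0.92 to 0.17. In XEN dXist Aza against XEN dXist, Zic2 ranged from -0.74 to 1.48. In XEN dXist Aza against XEN WT Aza, Pou5f1 ranged from -3.03 to 1.09 and Nanog from -1.08 to 1.13. For the Aza interaction, Zic2 ranged from -0.82 to 1.32, Lin28a from -1.1 to 0.24 and Pou5f1 from -1.88 to 2.24. For the dXist interaction, Sox2 ranged from -0.03 to 4.53, Lin28a from -0.1 to 1.31 and Fgf5 from -0.41 to 0.41.

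Precision was limited by 2 or 3 libraries a group, and in XEN by counts: only Pou5f1, Nanog, Zic2, Lin28a and Sall4 passed the filter there. Another scaling moved 5 of 60 group levels by more than 1 SD.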

Other observations

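Outside the 10 genes, 3 genes of the early embryo were picked after their values in the treated XEN libraries had been seen, and none of them was called by edgeR's quasi-likelihood test (adjusted p = 0.0593 to 0.0751 in XEN dXist Aza against XEN dXist, and 0.149 to 0.309 in XEN WT Aza against XEN WT). Dppa4, a chromatin factor of pluripotent cells, averaged 6.89 ± 3.01 CPM in XEN dXist Aza, against 0.177 ± 0.25 CPM in XEN dXist, and 3.8 ± 0.921 CPM in XEN WT Aza, against 0.187 ± 0.122 CPM in XEN WT. Its partner Dppa2 averaged 4.32 ± 1.21 CPM in XEN dXist Aza, against 0.0689 ± 0.0598 CPM in XEN dXist, and 1.19 ± 0.646 CPM in XEN WT Aza, against 0.0339 ± 0.000332 CPM in XEN WT. Lin28b averaged 1.56 ± 1.83 CPM in XEN dXist Aza, against 0.0241 ± 0.0211 CPM in XEN dXist, and 3.14 ± 0.0116 CPM in XEN WT Aza, against 0.239 ± 0.29 CPM in XEN WT. The XEN WT Aza libraries were total-like and the XEN WT libraries polyA-like, so Aza and the type cannot be told apart in the wild type. Values are mean ± SD over 2 libraries a group, 3 for XEN dXist.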
